A study of Homo sapiens with 10 samples.

Results

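The S100 genes encode small calcium-binding proteins that each carry a pair of EF-hands, the helix-loop-helix unit that holds a calcium ion. Most act as dimers: when calcium rises they open a surface and dock onto partner proteins such as annexins, myosin and ezrin, and some leave the cell and act on receptors. Most of the family's genes lie together on human chromosome 1, many are expressed in epithelia, and altered levels of several of them have been described in colorectal and other cancers. This report follows the S100 genes named by a list of 10 symbols, *S100A2*, *S100A3*, *S100A4*, *S100A6*, *S100A10*, *S100A11*, *S100A13*, *S100A14*, *S100A16* and *S100P*, listed by family. Of these, 9 were among the 13029 genes of the ZMAT3 experiment and all 10 among the 17642 genes of the p53 knockdown experiment. *S100P* was not analysed in the ZMAT3 experiment.

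mRNA was sequenced in 10 libraries of HCT116, a human colorectal cancer cell line, in 2 separate experiments, to find the RNAs that depend on the RNA-binding protein ZMAT3 and on p53, the transcription factor that induces it. In the first, a ZMAT3 wild-type clone (ZMAT3-WT, 3 libraries) was compared with a clone depleted of ZMAT3 (ZMAT3-KO, 3 libraries), and in the second, cells given a control siRNA (siCTRL, 2 libraries) were compared with cells given a pool of siRNAs against p53 (sip53, 2 libraries) for 72 h. No drug is described for any group beyond the puromycin used to select the edited cells. The column labels of the ZMAT3 libraries carry the letters EV and unt, which are not explained. Each ZMAT3 genotype is 1 clone of cells selected after CRISPR/Cas9 editing, so a difference between the clones other than the edit cannot be told apart from it, and the replicates are repeat cultures. The edit removed a short stretch near the p53 response element in an intron of *ZMAT3* and left the coding sequence in place, so that ZMAT3-KO lowers the transcript without abolishing it. The measured transcripts followed the labels. *ZMAT3* stood at 5.00, 5.20 and 5.26 log2 CPM (counts scaled to a fixed library total) in ZMAT3-WT and at 2.25, 2.34 and 2.20 in ZMAT3-KO. *CDKN1A*, the p53-induced gene of the cell cycle inhibitor p21, stood at 525 and 481 FPKM (fragments scaled by transcript length and library total) with siCTRL and at 34.2 and 37.7 with sip53. The *ZMAT3* transcript also fell in the knockdown experiment, from 12 and 13.6 FPKM with siCTRL to 3.16 and 1.97 with sip53. Read depth is unknown in both experiments, since neither table holds counts.

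Of the 10 genes, 9 lie on the minus strand of chromosome 1 and *S100P* lies alone on the plus strand of chromosome 4 (chr4:6693878-6697170, hg38, GENCODE). *S100A10* (chr1:151982915-151993859) and *S100A11* (chr1:152032506-152047907) are neighbours, and 1486691 bases separate them from the main group. That group runs from *S100A6* (chr1:153534599-153536244) through *S100A4* (chr1:153543613-153550136), *S100A3* (chr1:153547329-153549258), *S100A2* (chr1:153561108-153567890), *S100A16* (chr1:153606886-153613145) and *S100A14* (chr1:153614255-153616986) to *S100A13* (chr1:153618787-153631360). The genes are compact, with canonical transcripts of 434 bases (*S100A6*) to 1172 bases (*S100A16*). *S100A3* lies within the span of *S100A4* on the same strand, and their exons share 0 bases. *S100A13* shares 225 of its 477 canonical exon bases with a long noncoding RNA gene on the same strand, so reads there could be split between them, and another of its transcripts overlaps *S100A1* on the opposite strand. Whether the siRNA libraries kept strand is not given in the sources used here.

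Promoter windows of 300 bases, from 250 bases before to 50 after the annotated start, are shown for the 2 genes with the largest rise in ZMAT3-KO, the 2 whose window holds the AP-1 heptamer, and *S100A10*, the gene with the smallest difference. They are RefSeq sequence (GRCh38.p14), read 5′ to 3′ on the gene's own strand at the first listed start. Capitals mark the letters TGAGTCA (AP-1, on either strand), TATAAA or GGGCGG (a GC box).
S100A14 (chr1:153616276-153616575): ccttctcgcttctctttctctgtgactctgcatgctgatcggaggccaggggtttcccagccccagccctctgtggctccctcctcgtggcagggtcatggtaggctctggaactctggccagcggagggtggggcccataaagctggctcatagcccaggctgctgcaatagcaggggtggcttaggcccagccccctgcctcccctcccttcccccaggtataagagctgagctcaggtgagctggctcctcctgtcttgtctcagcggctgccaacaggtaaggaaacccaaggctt
S100A4 (chr1:153545757-153546056): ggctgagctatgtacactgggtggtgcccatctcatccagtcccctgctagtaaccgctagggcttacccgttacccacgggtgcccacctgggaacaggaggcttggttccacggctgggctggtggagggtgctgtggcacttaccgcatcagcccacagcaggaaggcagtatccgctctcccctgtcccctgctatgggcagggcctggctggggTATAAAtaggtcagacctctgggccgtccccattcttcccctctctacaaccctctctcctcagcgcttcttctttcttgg
S100A3 (chr1:153549209-153549508): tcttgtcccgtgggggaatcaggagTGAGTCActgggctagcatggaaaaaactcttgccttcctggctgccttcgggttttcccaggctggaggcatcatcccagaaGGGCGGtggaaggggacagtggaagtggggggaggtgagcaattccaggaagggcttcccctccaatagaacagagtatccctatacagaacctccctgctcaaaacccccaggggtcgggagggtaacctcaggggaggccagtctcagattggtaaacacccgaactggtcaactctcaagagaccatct
S100A2 (chr1:153565795-153566094): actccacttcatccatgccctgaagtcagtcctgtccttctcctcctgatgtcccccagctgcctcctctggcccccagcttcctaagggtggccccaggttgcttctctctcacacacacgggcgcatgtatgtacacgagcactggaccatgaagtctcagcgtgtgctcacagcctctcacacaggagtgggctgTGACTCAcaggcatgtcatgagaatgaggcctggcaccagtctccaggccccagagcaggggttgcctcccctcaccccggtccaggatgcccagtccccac
S100A10 (chr1:151993810-151994109): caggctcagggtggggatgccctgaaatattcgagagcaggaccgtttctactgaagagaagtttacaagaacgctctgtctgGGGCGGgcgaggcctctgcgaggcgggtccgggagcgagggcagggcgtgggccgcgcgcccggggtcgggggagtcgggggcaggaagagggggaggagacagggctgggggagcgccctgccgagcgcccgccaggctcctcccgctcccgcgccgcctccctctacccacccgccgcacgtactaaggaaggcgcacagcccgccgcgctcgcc

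No motif is common to these windows. The AP-1 letters TGAGTCA were found in 2 of the 10 genes' windows, *S100A3* and *S100A2*, against 4.96% of 34943 RefSeq promoter windows of the same length. TATAAA was found in the windows of *S100A4* and *S100P*, against 11.6% of all windows, and GGGCGG in those of *S100A10*, *S100A11*, *S100A13*, *S100A3* and *S100A6*, against 44.9%. In *S100A6* 2 of the GGGCGG matches overlap each other. The windows of *S100A14* and *S100A16* held none of these letters on either strand, and the ETS letters CCGGAAGT (4.11% of all windows) and the CRE letters TGACGTCA (1.84%) were in 0 of the 10. These counts describe letters at the first listed start and are not measurements of binding.

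All 9 measured S100 transcripts were higher in ZMAT3-KO than in ZMAT3-WT, in every library and without overlap, and the difference ran from 1.12-fold (*S100A10*) to 4.88-fold (*S100A14*). Of the 9, 4 passed both an adjusted p of 0.05 and a change of at least 1.5-fold: *S100A14*, *S100A4*, *S100A3* and *S100A16*. Over all 13029 genes, 4.6% passed these thresholds upward and 4.37% downward. At the adjusted p alone all 9 were higher, against 28.7% of all genes. Groups that did not overlap, with ZMAT3-KO higher, were found for 9 of 9 S100 genes and for 31.3% of all genes. The members were chosen with earlier results of these data known, so these shares describe them and are not an independent test. The median log2 fold change was 0.57 for the 9 genes and -0.01 for all genes. Adjusted p-values are from limma, corrected over all genes of the experiment. In RNA from bulk cultures, a level per cell and a share of cells that express a gene cannot be told apart.

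**Figure D1:**
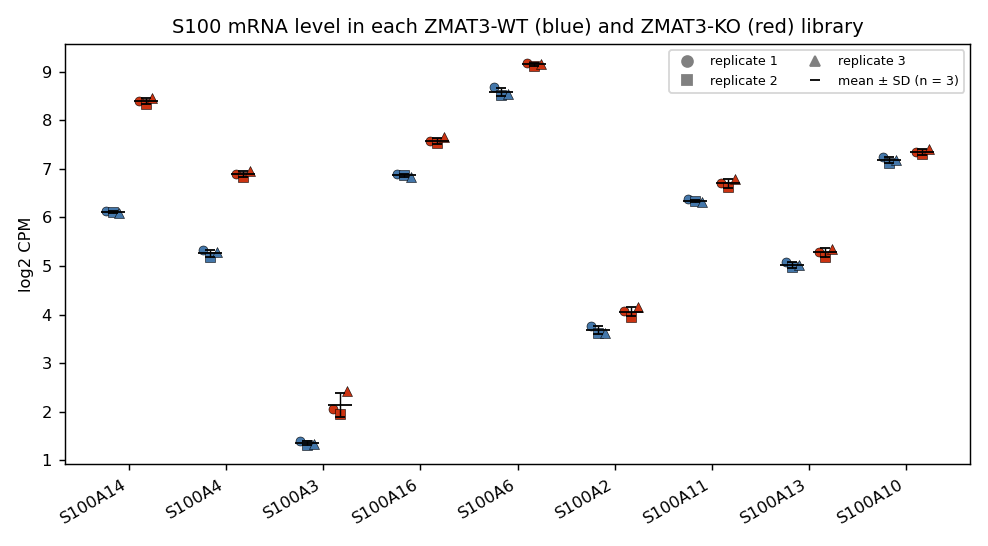
Level of each of the 9 S100 transcripts in every library of the ZMAT3 experiment, in log2 CPM (each point 1 library, blue for ZMAT3-WT and red for ZMAT3-KO, point shape the replicate, bars the mean ± SD, n = 3). For every gene the ZMAT3-KO points lie above the ZMAT3-WT points, with the widest gap for *S100A14* (6.11 against 8.40 log2 CPM) and the narrowest for *S100A10* (7.18 against 7.35).

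*S100A14*, an S100 protein of epithelial cells, showed the largest rise. It measured 6.13, 6.11 and 6.09 log2 CPM in ZMAT3-WT and 8.40, 8.35 and 8.45 in ZMAT3-KO. The replicates of each clone lay within a narrow band and the gap between the clones was far wider than either band. The log2 fold change was 2.29 ± 0.0319 (SE, n = 3 per group; 95% interval 2.22 to 2.36; limma adjusted p = 1.5e-14), a 4.88-fold rise and the 55th from the highest among 13029 genes. *S100A16*, the broadly expressed member whose start lies a few kilobases from that of *S100A14*, rose less: it measured 6.90, 6.87 and 6.84 log2 CPM in ZMAT3-WT and 7.57, 7.53 and 7.65 in ZMAT3-KO, a log2 fold change of 0.72 ± 0.0340 (SE, n = 3 per group; limma adjusted p = 2.73e-09). The intervals of these 2 neighbours, 2.22 to 2.36 and 0.64 to 0.79, do not overlap.

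*S100A4*, known as a metastasis-associated protein that binds non-muscle myosin, and *S100A3*, a cysteine-rich protein of the hair cuticle, both rose. *S100A4* measured 5.32, 5.19 and 5.28 log2 CPM in ZMAT3-WT and 6.89, 6.83 and 6.95 in ZMAT3-KO, a log2 fold change of 1.63 ± 0.0422 (SE, n = 3 per group; limma adjusted p = 8.01e-12), or 3.09-fold. As for *S100A14*, replicates were close together and the groups lay far apart. *S100A3*, which lies within the span of *S100A4*, measured 1.39, 1.31 and 1.34 log2 CPM in ZMAT3-WT and 2.06, 1.95 and 2.42 in ZMAT3-KO, a log2 fold change of 0.80 ± 0.121 (SE, n = 3 per group; limma adjusted p = 0.000109). It was the faintest member, its ZMAT3-KO libraries spread the most (SD 0.25), and adding 1 CPM before the log brought its value to 0.62.

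The members best known as annexin ligands passed the adjusted p but not the fold threshold. *S100A10*, the annexin A2 ligand that does not bind calcium and that holds plasminogen at the cell surface, measured 7.24, 7.12 and 7.19 log2 CPM in ZMAT3-WT and 7.34, 7.30 and 7.40 in ZMAT3-KO. *S100A11*, a ligand of annexin A1, measured 6.37, 6.34 and 6.33 in ZMAT3-WT and 6.70, 6.62 and 6.80 in ZMAT3-KO. Neither pair of groups overlapped, but for *S100A10* the highest ZMAT3-WT library and the lowest ZMAT3-KO library were almost level. The log2 fold changes were 0.17 ± 0.0364 for *S100A10* (SE, n = 3 per group; limma adjusted p = 0.00163) and 0.36 ± 0.0414 for *S100A11* (limma adjusted p = 1.01e-05), both under 1.5-fold.

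*S100A6*, or calcyclin, which binds the calcyclin-binding protein CACYBP, was just below the fold threshold. It measured 8.69, 8.52 and 8.55 log2 CPM in ZMAT3-WT and 9.18, 9.13 and 9.16 in ZMAT3-KO, which is 1.48-fold (log2 fold change 0.57 ± 0.0386, SE, n = 3 per group; limma adjusted p = 9.02e-08). ZMAT3-WT replicate 1 lay above the other two, and without it the log2 fold change was 0.62, past 1.5-fold. *S100A2*, a nuclear S100 protein of epithelial cells, measured 3.77, 3.62 and 3.63 in ZMAT3-WT and 4.08, 3.95 and 4.15 in ZMAT3-KO (log2 fold change 0.39 ± 0.0627, limma adjusted p = 0.000188, n = 3 per group). *S100A13*, which takes part in the release of FGF1 and interleukin 1 alpha without a signal peptide, measured 5.08, 4.97 and 5.02 in ZMAT3-WT and 5.29, 5.19 and 5.36 in ZMAT3-KO (log2 fold change 0.25 ± 0.0476, limma adjusted p = 0.000588, n = 3 per group). Both were below 1.5-fold.

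Among the cultures of 1 clone, the same libraries stood high or low for most members. ZMAT3-WT replicate 1 was the highest of its group for 9 of the 9 genes, and ZMAT3-KO replicate 2 was the lowest of its group for 9 of 9. ZMAT3-KO replicate 3 was the highest for 8, all except *S100A6*. The same count was not made over all genes, so the pattern cannot be called particular to the S100 genes. Summed over the 9 genes, the linear level was 926, 856 and 870 CPM in ZMAT3-WT and 1552, 1494 and 1590 CPM in ZMAT3-KO. The means were 884 ± 36.9 and 1545 ± 48.4 CPM (SD, n = 3 per group), a ratio of 1.75, so that these 9 genes made up 0.0884% of the CPM of ZMAT3-WT and 0.155% of that of ZMAT3-KO.

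After p53 knockdown, no member passed an unadjusted p of 0.05 in limma, without or with a block on the replicate numbers as labelled. The groups of most members overlapped. Over the 14274 genes tested, 5.86% passed that threshold upward and 9.28% downward, and 0.273% passed an adjusted p of 0.05. Of the 9 members tested, 3 were lower in both sip53 libraries than in both siCTRL libraries (*S100A10*, *S100A16* and *S100A3*), against 26.3% of all genes, and 0 were higher in both, against 20.1%. The median log2 fold change, on the log2(FPKM + 0.1) scale, was -0.37 for the 9 members and -0.04 for all genes tested. The members' median was -0.049 without siCTRL replicate 2 and -0.13 without sip53 replicate 2. *S100P*, the placental S100 protein that binds ezrin, was near the floor at 0.08 and 0.26 FPKM in siCTRL and at 0.51 and 0.12 in sip53, under the mean of 0.5 FPKM asked for a test.

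**Figure D2:**
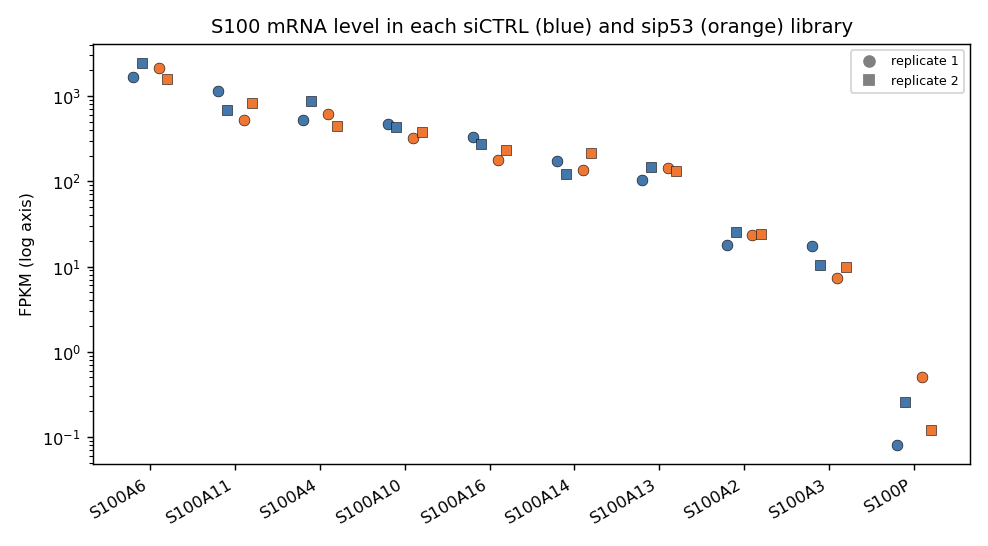
Level of each of the 10 S100 transcripts in the 4 libraries of the p53 knockdown experiment, in FPKM on a log axis (each point 1 library, blue for siCTRL and orange for sip53, circles replicate 1 and squares replicate 2). The siCTRL and sip53 points overlap for 6 of the 9 tested members, and only *S100A10*, *S100A16* and *S100A3* have both sip53 points below both siCTRL points.

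FPKM is scaled by transcript length, so levels are set side by side here, within the limits that short transcripts depend on how effective length was set and that *S100A13* shares exon bases with a noncoding gene. With siCTRL the mean level ran from *S100A6* (2043 FPKM, 43.3% of the summed level of all 10) through *S100A11* (906 FPKM), *S100A4* (698 FPKM), *S100A10* (456 FPKM), *S100A16* (303 FPKM), *S100A14* (149 FPKM) and *S100A13* (126 FPKM) to *S100A2* (21.7 FPKM), *S100A3* (14.1 FPKM) and *S100P* (0.17 FPKM). The order between *S100A11* and *S100A4*, and between *S100A14* and *S100A13*, is not settled, because the siCTRL libraries of each pair overlap. With sip53 the order of the means was the same, and *S100A16* and *S100A14* overlapped as well. *S100A14*, which rose most in ZMAT3-KO, was thus a mid-level member of the family.

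The members without overlap were lower with sip53. *S100A16* measured 334 and 271 FPKM in siCTRL and 179 and 236 in sip53. *S100A3* measured 17.7 and 10.5 FPKM in the siCTRL libraries against 7.38 and 9.83 with sip53. *S100A10* measured 475 and 437 FPKM in the siCTRL libraries against 319 and 378 with sip53. In each the groups did not overlap, but for *S100A3* the lower siCTRL library and the higher sip53 library were close. The log2 fold change was -0.55 for *S100A16* (95% interval -1.14 to 0.04, limma adjusted p = 0.356), -0.67 for *S100A3* (-1.45 to 0.12, adjusted p = 0.39) and -0.39 for *S100A10* (-0.90 to 0.12, adjusted p = 0.435). With 1 library left out, *S100A3* ran from -0.29 (without siCTRL replicate 1) to -1.04 (without siCTRL replicate 2), and of these fits only the one without siCTRL replicate 2 put it past the unadjusted threshold.

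The most abundant members had widely spread replicates. *S100A6* measured 1653 and 2433 FPKM in the siCTRL libraries against 2118 and 1572 with sip53. *S100A11* measured 1132 and 679 FPKM in the siCTRL libraries against 528 and 825 with sip53. *S100A4* measured 529 and 867 FPKM in the siCTRL libraries against 617 and 446 with sip53. For these the libraries of 1 group differed by as much as the groups did, and the 95% intervals of the log2 fold change reached from -0.90 to 0.62 (*S100A6*), -1.31 to 0.49 (*S100A11*) and -1.18 to 0.45 (*S100A4*). *S100A14*, the most raised in ZMAT3-KO, measured 175 and 122 FPKM in the siCTRL libraries against 135 and 212 with sip53, a log2 fold change of 0.21 with a 95% interval of -0.57 to 0.99. That interval lies below the 2.22 to 2.36 measured in ZMAT3-KO, though the tables were normalized separately and the difference between the experiments was not tested. *S100A13* measured 104 and 149 FPKM in the siCTRL libraries against 143 and 132 with sip53, and *S100A2* measured 18.1 and 25.4 FPKM in the siCTRL libraries against 23.4 and 24.1 with sip53. Their 95% intervals were -0.46 to 0.74 and -0.42 to 0.71.

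**Figure D3:**
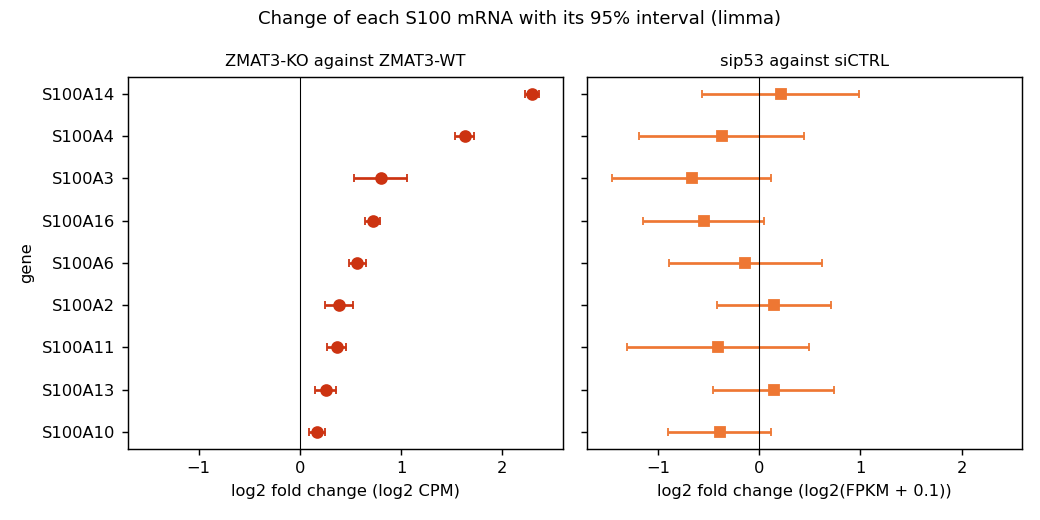
Log2 fold change of each S100 transcript with its 95% interval, ZMAT3-KO against ZMAT3-WT beside sip53 against siCTRL. All 9 intervals of the ZMAT3 experiment lie above 0, and all 9 of the p53 knockdown experiment include 0.

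The spread within the knockdown groups had a pattern. The members' libraries of 1 group differed by a median of 1.43-fold with siCTRL (range 1.09 to 1.68) and 1.33-fold with sip53 (range 1.03 to 1.57), against 1.21-fold and 1.24-fold for all genes tested. *S100A11*, *S100A3*, *S100A16*, *S100A14* and *S100A10* were higher in siCTRL replicate 1 and in sip53 replicate 2, and *S100A4*, *S100A6* and *S100A13* were higher in siCTRL replicate 2 and in sip53 replicate 1. The deviations of siCTRL and sip53 libraries that carry the same number were negatively correlated over all genes tested (r = -0.62 across 14274 genes, which are not independent replicates). With a block on the crossed numbers, chosen after seeing the data, 6 members passed the unadjusted threshold (1 higher, 5 lower), as did 5538 of the 14274 genes. The summed level of the 10 genes was 4437 and 4995 FPKM in siCTRL and 4070 and 3835 in sip53, so the groups did not overlap in the sum, although *S100A6* alone carried 43.3% of the siCTRL sum and 46.7% of the sip53 sum.

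Along chromosome 1, members that lie side by side differed in the size of their change in ZMAT3-KO. *S100A14*, with 2.29, lies between *S100A16* (0.72) and *S100A13* (0.25). The next member after *S100A6* (0.57) is *S100A4* (1.63), with *S100A5* between them. *S100A4* spans *S100A3* (0.80), and *S100A2* (0.39) lies beyond. Other genes that start within 100 kb of a member numbered 39 in the annotation, of which 9 were tested in the ZMAT3 experiment. Of these 9, 0 passed both thresholds, against 4.6% of all genes upward and 4.37% downward. With 9 genes, 0 called does not set them apart from all genes. At the adjusted p alone 3 were higher and 1 lower, against 28.7% of all genes higher and 3925 of the 13029 lower. Their median log2 fold change was 0.03, over genes of both chromosomes. *KIAA0232* (0.38, the highest), *MRFAP1* (0.03), *MRFAP1L1* (-0.004) and *BLOC1S4* (0.01) lie near *S100P* on chromosome 4. *S100P* itself was not analysed in that experiment. On chromosome 1 the lowest was *THEM4* (-0.31), near *S100A10*. Beside the main group, *CHTOP*, an mRNA export factor next to *S100A13*, stood at 0.19 and *SNAPIN*, of the SNARE-associated machinery, at 0.19. *ILF2*, an RNA-binding nuclear factor, stood at -0.01 and *INTS3* at 0.08. With sip53, 11 of the 39 were tested, of which *CHTOP* was higher (log2 fold change 0.51, limma adjusted p = 0.266) and *KIAA0232*, near *S100P*, and *S100A5* were lower at the unadjusted threshold. Over all genes tested, 5.86% passed that threshold upward and 9.28% downward.

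**Figure D4:**
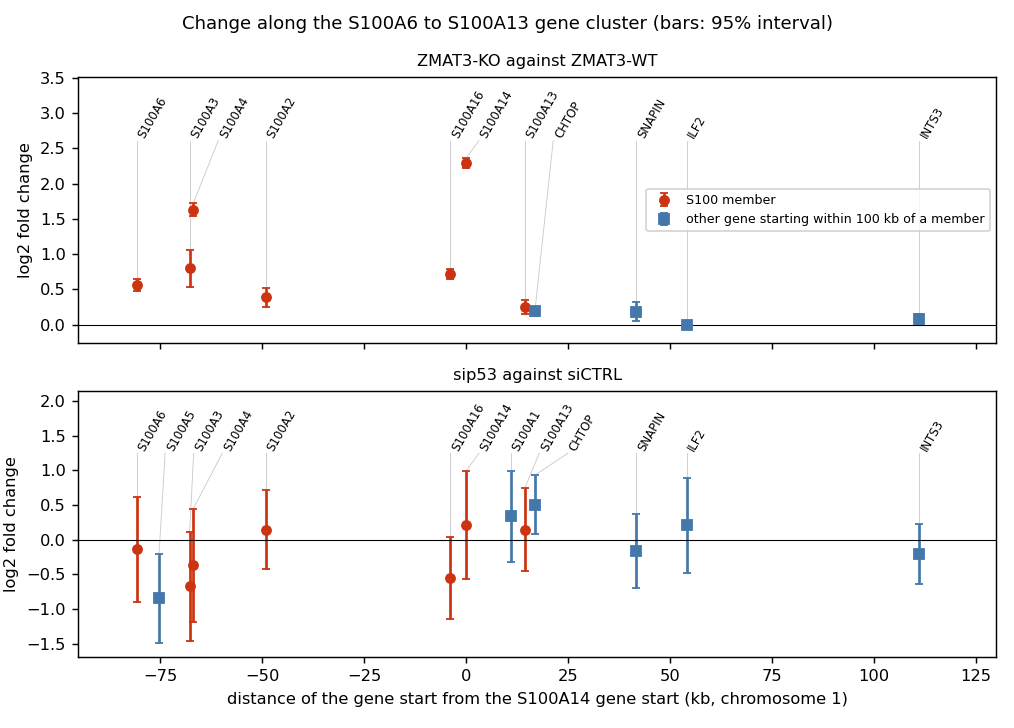
Log2 fold change with its 95% interval against the distance of each gene's start from that of *S100A14*, in kb on chromosome 1, for ZMAT3-KO (upper panel) and sip53 (lower panel); circles are S100 members and squares other genes starting within 100 kb of a member. In the upper panel *S100A14* (2.29) and *S100A4* (1.63) stand above close neighbours such as *S100A13* (0.25) and *CHTOP* (0.19).

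The rest of the S100 family was mostly outside the measured genes. Of 11 other S100 genes listed, 0 were among the genes of the ZMAT3 experiment and 2 were among those of the knockdown experiment. *S100A5*, a neighbour of *S100A6*, measured 3.50 and 3.04 FPKM in the siCTRL libraries against 1.57 and 2.00 with sip53 (log2 fold change -0.84, limma adjusted p = 0.232). *S100A1*, best known in heart and muscle, measured 3.50 and 2.40 FPKM in the siCTRL libraries against 3.65 and 3.74 with sip53 (log2 fold change 0.34, limma adjusted p = 0.597). Both are faint beside their neighbours, and only *S100A5* passed the unadjusted threshold. Of 7 fused-type S100 genes, which encode large structural proteins of the skin barrier, 4 were in the knockdown table, none above 0.07 FPKM.

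The known binding partners of S100 proteins were mostly not called in ZMAT3-KO. Of 18 listed, 14 were tested in the ZMAT3 experiment, with a median log2 fold change of 0.04, and 1 was called higher and 2 lower, against 4.6% and 4.37% of all genes. The one that rose was *ANXA1*, which encodes annexin A1, the partner of S100A11: it measured 8.54, 8.61 and 8.65 log2 CPM in ZMAT3-WT and 9.28, 9.34 and 9.36 in ZMAT3-KO, a log2 fold change of 0.73 ± 0.0315 (SE, n = 3 per group), with no overlap. *EZR*, which encodes the membrane-to-actin linker ezrin, a partner of S100P, fell from 10.88, 10.89 and 10.92 log2 CPM to 9.99, 9.98 and 9.98, a log2 fold change of -0.92. *SYT1*, which encodes the calcium sensor synaptotagmin 1, found with S100A13 in the complex that releases FGF1, fell from 5.39, 5.49 and 5.51 log2 CPM to 3.59, 3.69 and 3.68 (log2 fold change -1.81). The partners of the other members were close to level: the log2 fold change was -0.01 for *ANXA2*, the annexin A2 gene, -0.01 for *CACYBP* and 0.11 for *MYH9*, the myosin heavy chain bound by S100A4. *AHNAK*, a scaffold bound by the S100A10 and annexin A2 complex, stood at -0.38. With sip53, 0 of the 14 partners tested passed the unadjusted threshold, against 5.86% of all genes upward and 9.28% downward, and their median was 0.04.

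Plasminogen and other EF-hand genes, close to the S100 proteins in function, were called in both directions or not at all in ZMAT3-KO. Of 5 genes of plasminogen activation, a process in which S100A10 takes part, 0 passed both thresholds, and the urokinase gene *PLAU* stood at -0.20. Of 21 other EF-hand genes tested, 1 was called higher and 2 lower, against the same 4.6% and 4.37% of all genes, with a median log2 fold change of 0.03. *VSNL1*, a neuronal calcium sensor, rose (1.89), *CALB2*, which encodes the calcium buffer calretinin, fell (-1.48), and *EFHD2*, an actin-associated EF-hand protein, fell (-0.59). With sip53, 6 of 22 EF-hand genes were higher at the unadjusted threshold and 0 lower, against 5.86% and 9.28% of all genes tested, with a median of 0.20. They were *CALB1*, *NUCB2* (1.03), *TESC* (0.67), *VSNL1* (0.66), *CALB2* (0.62) and *CIB1* (0.55). *CALB1*, which encodes calbindin, was the only one of these to pass the adjusted threshold, from 0.18 and 0.15 FPKM to 3.45 and 3.72 FPKM (log2 fold change 3.80, limma adjusted p = 0.0425). *PLAUR*, the urokinase receptor gene, was higher with sip53 at the unadjusted threshold (0.46, limma adjusted p = 0.298).

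**Figure D5:**
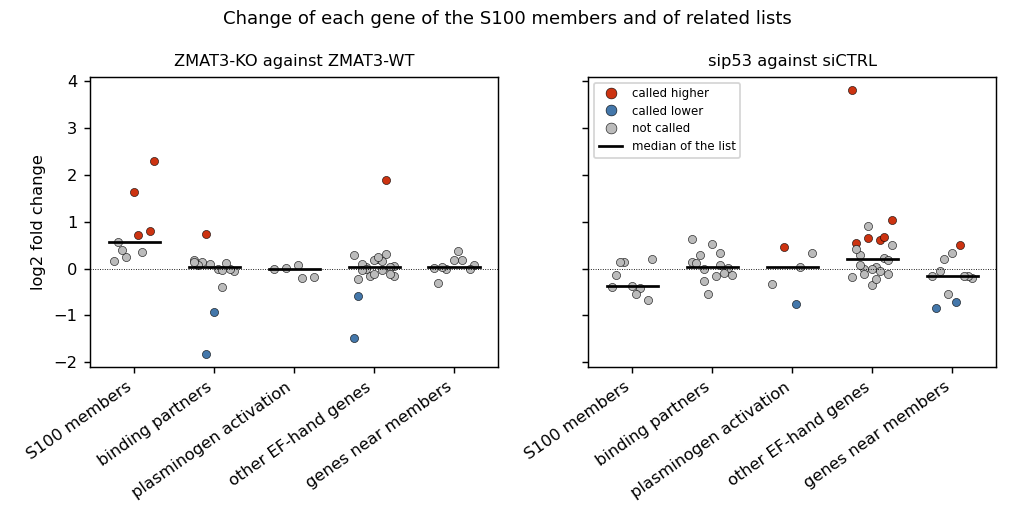
Log2 fold change of every tested gene among the S100 members, binding partners, plasminogen genes, other EF-hand genes and genes near a member, for ZMAT3-KO (left) and sip53 (right; each point 1 gene, red called higher, blue called lower, grey not called, bars the list medians). In ZMAT3-KO the S100 members lie at 0.17 to 2.29 with a median of 0.57, while the medians of the other lists lie near 0.

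Markers of the cells and properties of short transcripts were set beside these values. Of 10 colon epithelial markers, 6 were among the genes of the ZMAT3 experiment. Of these, 3 were called lower in ZMAT3-KO and 0 higher, against 4.37% and 4.6% of all genes. The 3 were *KRT19* (-1.75), *KRT8* (-0.94) and *KRT18* (-0.82), keratins of simple epithelia. *EPCAM* and *CDH1*, which encode epithelial adhesion proteins, stood at 0.01 and 0.05, and *CDX2* stood at -0.09. The summed level of these markers ran from 5757 to 6083 CPM in ZMAT3-WT and from 3160 to 3242 CPM in ZMAT3-KO, opposite in direction to the S100 sum. That sum of markers is mostly keratin: the ZMAT3-WT mean was 11.6 log2 CPM for *KRT8*, 10.5 for *KRT18* and 9.58 for *KRT19*, against 8.54 for *EPCAM*. In the ZMAT3 experiment 1 of 6 fibroblast markers (*COL1A1*, 0.16), 1 of 6 immune markers (*CD68*, 0.98, called higher, as were 4.6% of all genes) and 1 of 5 keratinocyte markers (*KRT10*, -0.42) had values. *CD68* was also higher with sip53 at the unadjusted threshold (2.09, limma adjusted p = 0.271), against 5.86% of all genes upward. Its siCTRL libraries were far apart (7.97 and 2.06 FPKM). *LYZ*, the other immune marker tested with sip53, was lower without overlap (-0.94) but was not called. The pan-leukocyte gene *PTPRC* was analysed in neither experiment. With sip53, *EPCAM* was the 1 of 6 tested epithelial markers that passed the unadjusted threshold (0.60, limma adjusted p = 0.247), against 5.86% of all genes upward. Among the 1178 genes of the ZMAT3 experiment with canonical transcripts of 1200 bases or less, a range that takes in all the members, the median log2 fold change was -0.05 and 2.80% were called higher. The part of keratin level or cell state in the S100 values was not tested.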

How the data were processed

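HCT116 mRNA was sequenced in 10 libraries, in groups taken from the sample titles. The ZMAT3 libraries were aligned by the authors with STAR to hg38 with GENCODE annotation and quantified with RSEM. The deposited values are on a log2 scale. Their linear values sum to nearly the same total in each library (999929 to 999931) and all 6 libraries share 1 distribution, so they are read here as quantile-normalised log2 CPM, although the step from RSEM is not given in the sources used here. The knockdown table was read as FPKM as deposited by the authors, from its values. The submitters' processing notes name CASAVA 1.8.2, TopHat2 2.0.8 and FastQC 0.11.2 with hg19 and hg38, without saying which libraries they served. FPKM divides by transcript length, so short transcripts such as those of S100 genes are sensitive to how effective length was set. Columns with the authors' own fold changes, statistics, p-values and mean signals were not used. The shared distribution of the ZMAT3 libraries and the scaling of FPKM hide any change in total RNA per cell, and depth is unknown, so no interval for counting error is given.

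Each experiment was fitted alone over all its genes with limma 3.58.1 in R 4.3.3 (variance trend, two-sided, Benjamini-Hochberg), as the tables were normalised separately. ZMAT3-KO against ZMAT3-WT used log2 CPM and called genes at adjusted p 0.05 and 1.5-fold. sip53 against siCTRL used log2(FPKM + 0.1), left out genes whose mean was under 0.5 FPKM, and called genes at unadjusted p 0.05. Such a fold change understates the change of faint genes. The test was checked on data simulated with independent noise in each library. Those data lack the correlated deviations of the knockdown libraries, so the check does not cover that feature. p-values measure the spread between cultures of 1 clone, or between transfections. Tables and figures were made with Python 3.11.15, pandas 2.3.3 and matplotlib 3.10.9.

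The genes named were all 10 members, in both experiments, and genes of fixed lists: other S100 genes, fused-type S100 genes, binding partners, plasminogen genes, EF-hand genes, genes starting within 100 kb of a member, and markers of colon epithelium, fibroblasts, immune cells and keratinocytes. Of these lists, called genes and those that bear on a member's partner or neighbour were given with values, and some genes are not reported here. The members and lists were chosen with earlier results of these data known. Alternatives were the pseudocount, the filter on low values, median centring, no variance trend, other thresholds, a replicate block and leaving out each library. Promoters were RefSeq windows of GRCh38.p14. Same-numbered ZMAT3 libraries did not deviate together (r = -0.04, -0.02 and -0.09 across 13029 genes), so the numbers were not taken to pair them.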

Additional observations from a re-analysis of the deposited data

How the results depend on the processing

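In the ZMAT3 experiment, adding 1 CPM before the log gave 785 genes and a mean of at least 0 log2 CPM gave 1001, each with 4 members. With the adjusted p alone, 7659 genes and 9 members were called, and with 2-fold in place of 1.5-fold, 396 genes and 2 members (*S100A14* and *S100A4*), against 1168 genes and 4 members. Leaving out 1 library gave 1154 to 1201 genes, 4 to 5 members and a member median of 0.53 to 0.62. The fifth was *S100A6* (0.62) without ZMAT3-WT replicate 1. A replicate block gave 1178 genes and the same number of members, 4. Of 117 member values under 13 alternatives, 109 kept direction and side of the threshold, 6 came past it, 2 no longer passed and 0 reversed. With sip53, 2161 genes were called (836 higher, 1325 lower), and median centring, which moved all genes by 0.08, gave 2168 (1120 higher, 1048 lower). A replicate block gave 1084 genes and 0 members, and the adjusted p 39 genes. Leaving out 1 library gave 1185 (without siCTRL replicate 1) to 1891 genes, 1198 without siCTRL replicate 2, and 0 to 1 members, the 1 being *S100A3* without siCTRL replicate 2. The crossed pairing of replicate numbers, chosen after seeing the data, gave 5538 genes (2410 higher, 3128 lower) and 6 members (1 higher, 5 lower). The member median of -0.37 was -0.25 without the filter on low values, which adds *S100P*, and ran from -0.29 to -0.049 when 1 library was left out (-0.049 without siCTRL replicate 2, -0.13 without sip53 replicate 2). Signs turned for *S100A13* (-0.12) and *S100A2* (-0.10) without siCTRL replicate 1, *S100A14* (-0.05) and *S100A6* (0.14) without siCTRL replicate 2, and *S100A14* (-0.12) and *S100A6* (0.08) without sip53 replicate 2. Over all libraries left out in turn, *S100A13* ran from -0.12 to 0.40, *S100A2* from -0.10 to 0.39, *S100A14* from -0.12 to 0.54 and *S100A6* from -0.42 to 0.14. The cause of these shifts was not tested. With 2 libraries a group and FPKM without depth, changes of the size of the members' intervals could not be resolved.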
